A study of Mus musculus with 8 samples.

Results

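The 3 clones described here are lines of B16F10, a pigmented mouse melanoma cell line, each grown to overexpress PGC7. PGC7, also called Stella and encoded by Dppa3, is a protein of the egg and of germ cells that shields DNA methylation after fertilization. Their arrays, titled clone-1, clone-2 and clone-3 and called clones 1 to 3 below, were 3 of 8 arrays in the series, and were chosen by title alone. The other arrays were a B16F10 control and 4 arrays of NIH3T3 fibroblasts, and none of them entered any value. Each clone was set against the mean of the other 2, so every comparison is between PGC7 clones and none is between PGC7 and its absence.

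All 3 cultures had the same labelled history. Cells were exposed overnight to viral supernatant with polybrene and grown in serum-containing medium. The series' design text calls the clones independent. The genotype field is at odds with the titles, since it gives the gene as PGC8 and the cells as pre-cloned. The labels name neither the promoter that drove PGC7, nor the number of integrations, nor the passage at harvest. Each clone was measured once, on 1 array of total RNA. The spread between repeat cultures of a clone is therefore unknown, no test was possible, and a difference below can stem from the clone, the culture or the array.

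The cells carried the identity of their label. All 7 melanocyte markers passed the signal filter, with means between 7744 and 26795 over the 3 arrays, and their summed signal was 117418 in clone 1, 124836 in clone 2 and 135099 in clone 3. Most markers of other cells were low. Of 12 fibroblast markers 8 had a signal under 50 in every clone, and summed signals were 767 in clone 1, 961 in clone 2 and 659.6 in clone 3. None of the 12 leukocyte or 8 endothelial markers on the array passed, and of 10 epithelial markers Cdh1 alone did (97.4, 85.7 and 130 in clones 1, 2 and 3). Of 14 muscle, fat and cartilage markers 9 were under 50 in every clone, but the list summed to 2262 in clone 1, 2461 in clone 2 and 2277 in clone 3. Most of that was Mef2c (1953, 2021 and 1893), and Sox9 also passed (112, 176 and 136). The probe set for Dppa3 stayed below the filter, with 70.0, 117 and 71.0 in clones 1, 2 and 3. The reading was highest in clone 2, by 0.69 on the log2 scale. The files do not place that probe set within or outside the PGC7 insert of the virus, so it is no check of the PGC7 level.

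Array quality was alike in the ratio of 3' to 5' signal, which ran from 0.841 to 0.865 for Gapdh and from 1.29 to 1.34 for beta-actin. The trimmed mean was 500.003 in each array, an equality set by the deposited scaling and so no measure of quality. The poly-A spikes, bacterial transcripts mixed into the RNA before labelling, were less even: their median log2 difference was 0.00 in clone 1, -0.26 in clone 2 and 0.27 in clone 3. The 18S probe sets ran in the same order, at 0.20, -0.64 and 0.40. The hybridization spikes (BioB, BioC, BioD and Cre) ran in another order, at -0.14, -0.04 and 0.21. Scaling the arrays to the poly-A spikes, called spike scaling below, moved the median of all genes to 0.28 in clone 2 and -0.27 in clone 3. All differences below are therefore relative to the average gene of each array.

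A clone's difference is its log2(signal + 6) minus the mean of the same for the other 2 clones. The differences of the 3 clones at a probe set sum to 0, so a gene low in clone 2 must be higher in at least 1 other clone. A difference of 1 is a 2-fold change on this scale. Of 45101 probe sets, 17449 passed a mean signal of 100, and they read 9428 genes.

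Clone 1 lay between the others. Across probe sets the clones correlated at 0.992 for clones 1 and 2, 0.992 for clones 1 and 3, and 0.987 for clones 2 and 3. The number of probe sets at least 2-fold apart was 53 (0.304%) between clones 1 and 2, 70 (0.401%) between clones 1 and 3, and 171 (0.98%) between clones 2 and 3. At the 233 probe sets (1.34%) whose range over the clones was 2-fold or more, clone 1 held the middle value in 64.8%, against 43.8% of all tested. At 1.5-fold or more of range (1437 probe sets, 8.24%) it held the middle in 59.0%. At no probe set were all 3 clones at least 2-fold from each other.

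Few probe sets stood 2-fold from the mean of the other clones. In clone 1 the count was 5 higher (0.0287%) and 10 lower (0.0573%). In clone 2 it was 29 higher (0.166%) and 34 lower (0.195%), and in clone 3 it was 26 higher (0.149%) and 41 lower (0.235%). At 1.5-fold the counts were 93 higher (0.533%) and 123 lower (0.705%) in clone 1, 310 (1.78%) and 272 (1.56%) in clone 2, and 265 (1.52%) and 289 (1.66%) in clone 3. Fewer were 2-fold from each other clone at once: 0 (0%) and 7 (0.0401%) in clone 1, 10 (0.0573%) and 15 (0.086%) in clone 2, and 10 (0.0573%) and 19 (0.109%) in clone 3. Counted as genes by their brightest probe set, clone 1 had 0 higher (0%) and 4 lower (0.0424%), clone 2 had 4 higher (0.0424%) and 7 lower (0.0742%), and clone 3 had 4 higher (0.0424%) and 5 lower (0.053%). The calls gathered among dim probe sets. In the 4363 dimmest, up to a mean signal of 281, 1.21% were 2-fold from the others in clone 3, against 0.0229% in the 4362 brightest. The median signal was 159 for the probe sets of 2-fold range and 705 for all.

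**Figure D1:**
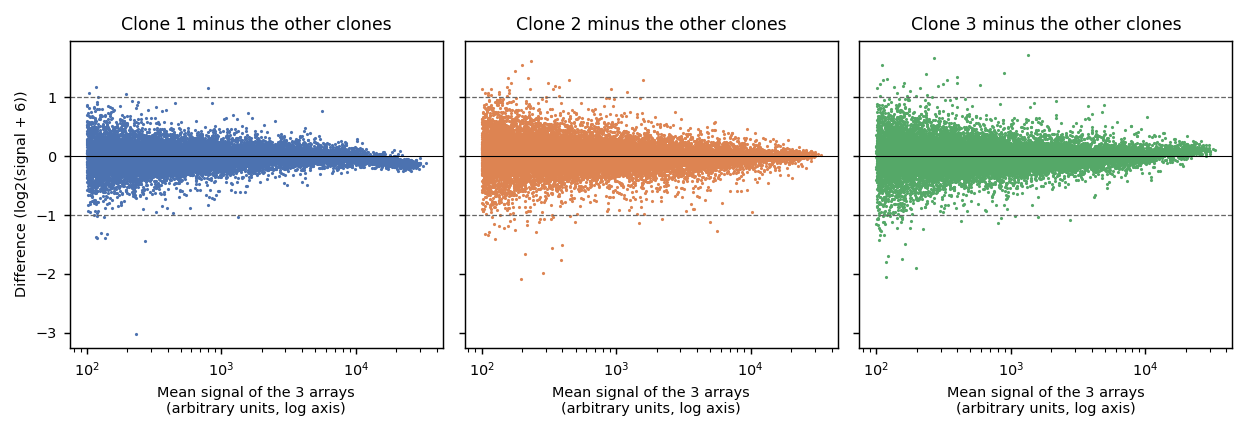
Difference of each clone from the mean of the other clones (vertical, log2(signal + 6)) against mean signal (horizontal, arbitrary units, log axis) for the 17449 probe sets tested, 1 point each, with dashed lines at 2-fold. The clouds narrow as signal rises, clone 1 has the fewest points past 2-fold (15 in all), and at the far right most points of clone 1 lie below 0 and most of clone 3 above it.

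At the bright end the arrays also differed as a whole. Of the 195 probe sets with a mean signal of 20000 or more, 97.9% were above 0 in clone 3 and 2.05% in clone 1, with medians of 0.11 and -0.13. Quantile normalization, which gives every array the same distribution, takes this out. The values of very bright genes are given both ways below.

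Pathways were read through 50 gene lists, of which 42 had 5 or more genes past the filter. The median difference of a list went beyond 0.2 in either direction for 0 lists in clone 1, 4 in clone 2 and 4 in clone 3. Over all 9428 genes the median was 0.00, 0.02 and -0.01 in clones 1, 2 and 3. Of these genes 4610 were above 0 in clone 1, 5229 in clone 2 and 4448 in clone 3, and the rest were below. The counts of list members above or below 0 are to be read beside these. The widest list medians belonged to hypoxia response and glycolysis, MHC class I presentation and the integrated stress response.

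**Figure D2:**
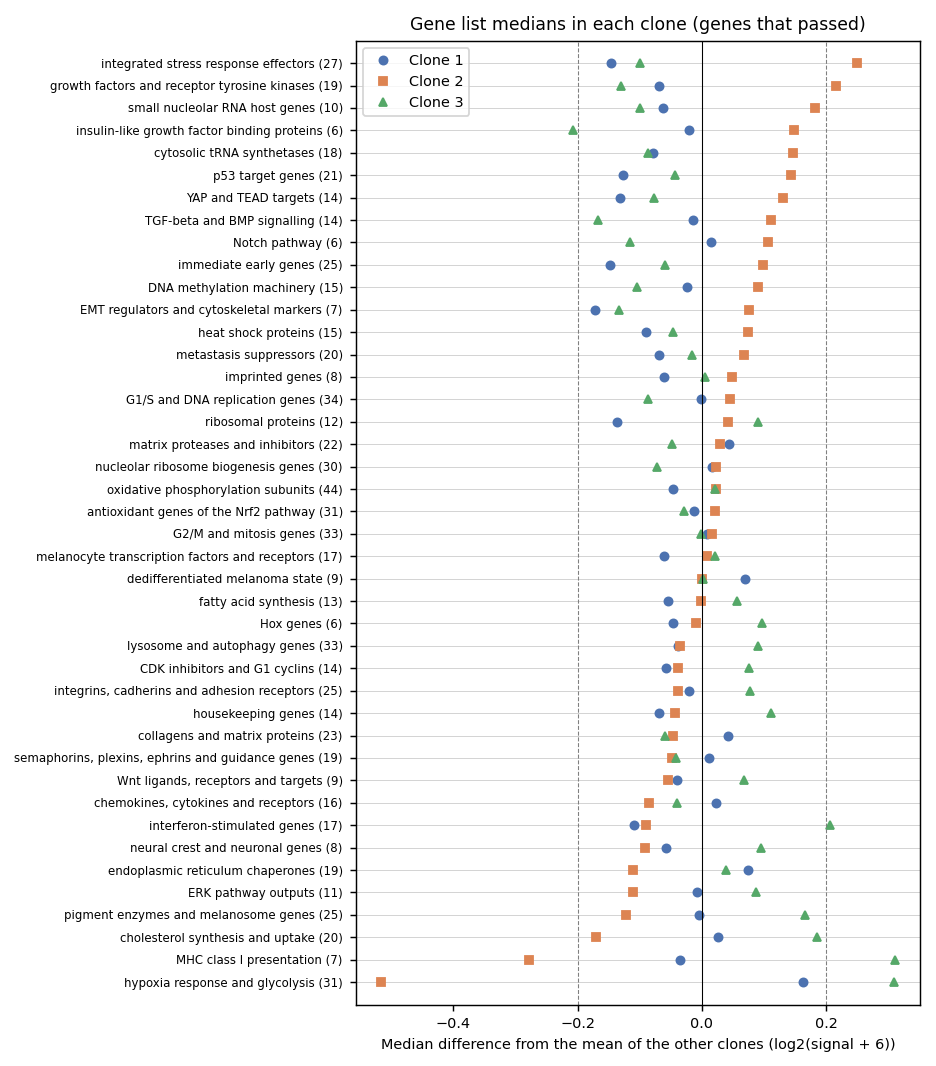
Median difference of each of the 42 gene lists with 5 or more genes past the filter (number of genes in brackets) in clone 1 (circles), clone 2 (squares) and clone 3 (triangles), in log2(signal + 6) units, ordered by clone 2, with dashed lines at 0.2 either side of 0. Clone 2 has the lowest median, -0.52 for hypoxia response and glycolysis, and the integrated stress response at 0.25 is its highest. Scaled to the poly-A spikes, the pigment, cholesterol and interferon medians of clones 2 and 3 change sign, as do several nearer 0.

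Genes of the hypoxia response were lowest in clone 2 and mostly highest in clone 3. In normal physiology the factor HIF-1 is destroyed while oxygen is plentiful, because prolyl hydroxylases such as Egln1 mark it for degradation. When oxygen falls it switches on glucose transporters, glycolytic enzymes, pH regulators and growth factors for vessels, and its own hydroxylases as a brake. In melanoma cells HIF-1 target genes can also be active at ordinary oxygen. Of the 36 genes listed, 32 were on the array and 31 passed the filter. Their median difference was 0.16 in clone 1, -0.52 in clone 2 and 0.31 in clone 3. In clone 2, 29 of 31 were below 0 and 13 were at least 1.5-fold lower, against 1.05% of all genes at that threshold. In clone 3, 27 were above 0 and 7 were 1.5-fold higher (0.986% of all genes). The low clone 2 is part of the reference of clone 3, and against clone 1 alone the median of clone 3 was 0.18. In clone 1, 24 were above 0 and 0 reached 1.5-fold in either direction (0.212% of all genes higher and 0.477% lower).

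The upstream letters of 2 of these genes are shown with the short core that HIF is known to bind. RefSeq's promoter table (build GRCm38.p6) held windows for 29 of the 31 genes. The 250 bases before the start are printed for Bnip3 and Egln1, whose windows overlap no gene of RefSeq's gene table. Capitals mark the core of the hypoxia response element, ACGTG or GCGTG, on either strand.
Bnip3, chr7:138909507-138909756, minus strand: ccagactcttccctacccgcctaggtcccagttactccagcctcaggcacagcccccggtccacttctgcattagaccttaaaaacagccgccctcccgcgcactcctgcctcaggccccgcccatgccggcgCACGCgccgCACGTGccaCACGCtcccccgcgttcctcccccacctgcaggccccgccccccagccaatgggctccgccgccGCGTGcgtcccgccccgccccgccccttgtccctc
Egln1, chr8:124949255-124949504, minus strand: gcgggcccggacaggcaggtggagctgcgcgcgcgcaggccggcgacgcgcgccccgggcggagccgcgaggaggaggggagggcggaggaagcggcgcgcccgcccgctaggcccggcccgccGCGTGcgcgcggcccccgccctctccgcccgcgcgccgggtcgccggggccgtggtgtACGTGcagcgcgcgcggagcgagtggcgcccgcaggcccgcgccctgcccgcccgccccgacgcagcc
Bnip3 held 5 matches, of which a pair overlap within CACGTG, also an E-box, and Egln1 held 2. This motif was added after the values had been seen. The core is short and common: 58.6% of the 10046 windows of tested genes held it. Of the 42 windows of the hypoxia list 78.6% did, and of the 111 windows of genes 1.5-fold lower in clone 2 the share was 63.1%. It was 56.5% of the 85 windows of genes 1.5-fold higher in clone 2. The high share was not particular to the hypoxia list: the integrated stress response list had 71.9% of 32 windows, and the pigment list had 48.0% of 25. A match is a description of the letters and not a measured site.

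Adm had the widest range of the list. It encodes adrenomedullin, a peptide that dilates vessels. Its signal was 398 in clone 1, 171 in clone 2 and 627 in clone 3, and clone 2 was 1.52 lower on the log2 scale than the mean of the others. A second Adm probe set read 487, 147 and 537. Both probe sets had their low value in clone 2, with clone 3 highest. Vegfa, the main growth factor for blood vessels, read 1152, 772 and 1234 (-0.62 in clone 2).

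The sensors and mitochondrial regulators followed the same order. Egln1 read 3007, 1948 and 3243, a difference of -0.68 in clone 2, and a second probe set gave -0.72. Bnip3, a mitochondrial protein that directs mitochondria to autophagy, read 11146, 6270.3 and 13292 (-0.96 in clone 2). Pdk1, the kinase that closes the entry of pyruvate into the citric acid cycle, read 3859, 2081 and 4054 (-0.92), and its second probe set gave -1.07. Clone 2 was the low one at each of these, and clones 1 and 3 were nearer to each other than to it.

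Sugar transport and the committed steps of glycolysis were lower in clone 2 as well. Slc2a1, the basal glucose transporter, read 5318, 3143 and 5196. Hk2, the hexokinase that traps glucose, read 6531, 4078 and 7708. Pfkl, a subunit of phosphofructokinase, read 4114, 2385 and 4845, and its second probe set had -0.98 in clone 2 beside -0.90. The lactate exporter Slc16a3 was dimmer, at 235, 139.9 and 313. In these 4 genes clone 2 stood 0.74 to 0.93 below the mean of the others.

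The abundant enzymes of the lower pathway differed far less. Aldoa read 23263, 22030.5 and 26516, Ldha read 21496.5, 20841 and 25245, and Pgk1 read 21340.1, 21702 and 24172. All of them had their highest reading in clone 3, where bright probe sets as a whole read higher. After quantile normalization their differences in clone 2 were -0.20, -0.17 and -0.08, and those of Tpi1, Pgam1 and Pkm were -0.22, -0.27 and -0.23. The highest signal on each array was 31326.5, 33526.9 and 34689.9. Whether differences are compressed at such bright signals was not tested.

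Other classical targets kept the pattern. Car9, the membrane carbonic anhydrase that exports acid, read 1641, 981 and 1958. P4ha1, which hydroxylates collagen, read 1414, 827 and 1630.3. Ankrd37, a small ankyrin-repeat protein, read 556, 272 and 646, and was 2.18-fold lower in clone 2. Not all members shared it: Ndrg1 read 3416, 3573 and 3363, and the transporter Slc2a3 read 1655, 1759 and 1468. Outside the list, 3 further genes known as hypoxia targets, chosen after their values were seen, ran the same way. The adenylate kinase gene Ak4 read 1638, 859.8 and 1786, Mgarp read 919, 579 and 1116, and Ccng2 read 2086, 1509 and 2890.4. With every scaling, filter, pseudocount and reading of genes tried, the list's median in clone 2 stayed between -0.54 and -0.25, and that in clone 3 between 0.05 and 0.41. The values nearest 0 came from spike scaling, under which the median of all genes was 0.28 in clone 2 and -0.27 in clone 3. The poly-A spikes and the 18S probe sets ran in the same order of clones as this list, and the hybridization spikes in another. Their part in it was not tested.

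**Figure D3:**
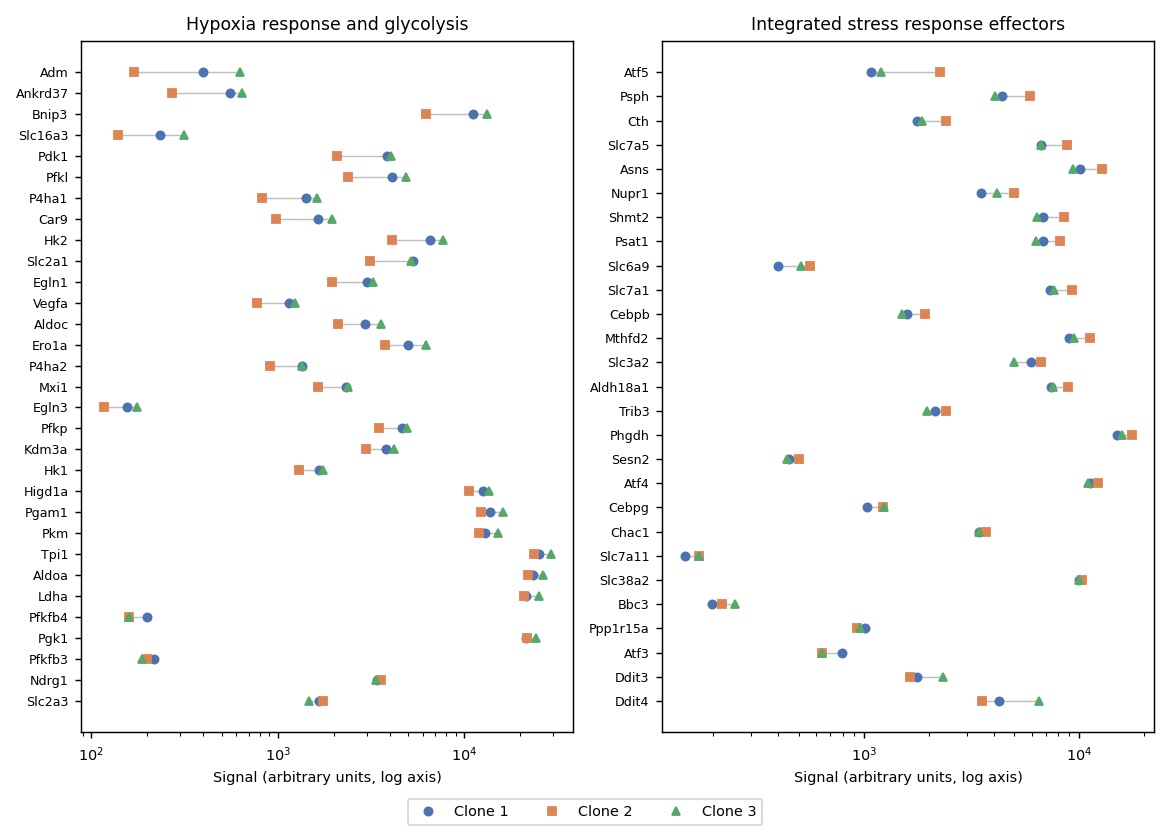
Signal (arbitrary units, log axis) of the 31 hypoxia and glycolysis genes (left, lowest difference of clone 2 at the top) and the 27 integrated stress response genes (right, highest difference of clone 2 at the top) that passed the filter, with 1 point for each clone and a grey line over the range. The squares of clone 2 lie left of the other clones from Adm down to Ldha, and right of them from Atf5 down to Atf4, while Ddit3 and Ddit4 have clone 3 highest.

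Amino acid genes of the integrated stress response were higher in clone 2. In this response a stress kinase slows protein synthesis, the factor ATF4 is translated all the same, and it turns on genes for making and importing amino acids and for charging tRNA. Of 33 genes listed, 27 passed. Their median difference was -0.15 in clone 1, 0.25 in clone 2 and -0.10 in clone 3. In clone 2, 22 of 27 were above 0, but 1 gene alone was 1.5-fold higher, where 0.88% of all genes were. The shift was thus shared by many genes and small in each.

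That gene was Atf5, a transcription factor of this response, at 1080 in clone 1, 2261 in clone 2 and 1205 in clone 3. Clone 2 was 0.98 above the mean of the others, with no second probe set to compare. Atf4 itself differed little, with 11152 in clone 1, 12194 in clone 2 and 10955 in clone 3. The end points of the response did not all follow the list. Ddit4, a brake on mTOR, was highest in clone 3 at 6508, against 4255 in clone 1 and 3529 in clone 2. The death factor Ddit3 (CHOP) had the same order, with 1771, 1642 and 2342, but a dim Ddit3 probe set read 86.5, 193 and 118. Trib3 (2130, 2407 and 1973) and Chac1 (3415, 3681 and 3417) were highest in clone 2, like most of the list.

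The biosynthetic enzymes were higher in clone 2. Asns, which makes asparagine, read 10110.5, 12744 and 9313, and its second probe set had 0.47 in clone 2 beside 0.39. Psph, the last enzyme of serine synthesis, read 4366, 5918 and 4075. Shmt2, which passes the carbon of serine to folate in mitochondria, read 6778, 8475 and 6373. A separate and dimmer Shmt2 probe set of the kind that can match several transcripts read 346, 92.4 and 421, so the probe sets of this gene disagree. Cth, which makes cysteine, read 1763, 2418 and 1871. Pck2, a mitochondrial enzyme outside the list and picked after its values were seen, was higher in clone 2 at both its probe sets (0.66 and 0.81).

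Transporters were also higher in clone 2, and tRNA charging enzymes slightly so. Slc7a5, the large neutral amino acid carrier, read 6655, 8736 and 6624, and the arginine carrier Slc7a1 read 7290.27, 9261 and 7623. Of 18 cytosolic tRNA synthetases that passed, 16 were above 0 in clone 2 and 0 of them reached 1.5-fold higher, where 0.88% of all genes did. Their median was -0.08, 0.15 and -0.09 in clones 1, 2 and 3, short of 0.2. Other lists had similar medians in clone 2, at 0.18 for small nucleolar RNA host genes and 0.14 for p53 targets. Yars and Lars were the widest, at 0.51 and 0.47 in clone 2.

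Asns carries the known ATF4 element close to its start. The same RefSeq table has 1 window for it, with the match to TGATGNAA on either strand in capitals, 23 bases before the start.
Asns, chr6:7693210-7693459, minus strand: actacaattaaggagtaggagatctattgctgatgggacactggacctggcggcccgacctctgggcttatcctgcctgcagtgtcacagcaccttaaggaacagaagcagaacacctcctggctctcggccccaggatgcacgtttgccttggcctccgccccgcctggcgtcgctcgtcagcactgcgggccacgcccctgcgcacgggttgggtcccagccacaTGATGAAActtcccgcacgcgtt
Of the 32 windows of stress response genes 5 held the element (15.6%), against 1.81% of the windows of all tested genes. Of the 85 windows of genes 1.5-fold higher in clone 2 it was 5.88%, and of the 111 windows of genes lower there it was 0%. In clone 3, 4.04% of the windows of higher genes and 3.70% of those of lower genes held the element. Among the 19 windows of genes 2-fold from the others in any clone 0 held it, 4 held the E-box of Mitf (CATGTG or CACGTG), 1 the cAMP response element (TGACGTCA) and 0 the interferon-stimulated response element. In all tested genes those last 3 motifs were in 15.2%, 2.64% and 2.28% of windows.

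MHC class I genes were highest in clone 3 and lowest in clone 2. Class I molecules carry peptides, cut by the proteasome and loaded in the endoplasmic reticulum, to the cell surface for inspection by killer T cells, and B16F10 is known for showing little of them. Of 26 genes listed, 17 were on the array and 7 passed the filter. All 7 were below 0 in clone 2 and above 0 in clone 3, with medians of -0.03, -0.28 and 0.31 in clones 1, 2 and 3. At 1.5-fold, 1 gene was lower in clone 2, against 1.05% of all genes, and 1 was higher in clone 3, against 0.986%. Scaled to the spikes the medians were -0.02 in clone 2 and 0.05 in clone 3, so the direction there is relative to other genes.

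H2-K1, a class I heavy chain, had the widest range, at 1252 in clone 1, 938 in clone 2 and 1942 in clone 3. Its probe set is of the kind that can match several family members, so H2 genes may share this reading. The common light chain B2m read 8517, 7503 and 10144. The other 5 genes had differences of 0.17 to 0.43 in clone 3. They include Psmb10, an immunoproteasome subunit (472, 445 and 619), and Tapbp, the peptide-loading chaperone tapasin (781, 703 and 920.3).

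Interferon-stimulated genes as a list were uneven. Of 17 that passed, 12 were above 0 in clone 3, with a median of 0.21, and clones 1 and 2 had -0.11 and -0.09. Scaling to the spikes turned the median of clone 3 to -0.06. Ifitm3, which blocks virus entry, read 1256, 1033 and 1749, and Ifi27 read 1767, 1559 and 2349. Cxcl10, a chemokine induced by interferon, went the other way, at 619, 770.5 and 513. The viral RNA sensor Ifih1 and the antiviral genes Ifit1 and Ifit2 also had their highest reading in clone 2.

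Pigment genes showed a graded order, with clone 2 low and clone 3 high, for some enzymes and channels but not for the most abundant. The factor Mitf drives these genes in melanocytes, through E-boxes in their promoters, and tyrosinase makes the first step of melanin synthesis. All 25 genes of the list on the array passed. In clone 3, 22 of 25 were above 0, against 4448 of all 9428 genes. Bright probe sets of any kind leaned the same way. Of those with a mean signal from 10000 to 20000, 78.2% were above 0 in clone 3, and of brighter ones 97.9%. The medians of the list were 0.00, -0.12 and 0.17 in clones 1, 2 and 3. On the spike scale the signs in clones 2 and 3 turned, to 0.14 and -0.10. After quantile normalization the median of clone 3 was 0.12.

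Trpm1, a cation channel named for its loss in melanoma, read 3766 in clone 1, 2818 in clone 2 and 5372 in clone 3. It was 0.72 higher in clone 3, and its dimmer probe sets that passed the filter gave 0.97 and 0.87. Oca2, a melanosome transporter whose loss causes albinism, read 386, 261 and 521. Tyr, tyrosinase itself, read 7451, 6185 and 9735, and its other probe sets put clone 3 at 0.68 and 0.54. Slc45a2, a melanosome transporter, read 8159, 6894 and 9779. The abundant Tyrp1, Dct, Pmel and Mlana differed by at most 0.21 between a clone and the others, and after quantile normalization by at most 0.07. Whether their differences are compressed at such bright signals was not tested. The genes of the list thus differed in size, and the list of melanocyte transcription factors and receptors had medians of -0.06, 0.01 and 0.02.

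Tyr is printed for its E-box, CATGTG, which begins 21 bases before the start; capitals mark CATGTG or CACGTG on either strand.
Tyr, chr7:87493513-87493762, minus strand: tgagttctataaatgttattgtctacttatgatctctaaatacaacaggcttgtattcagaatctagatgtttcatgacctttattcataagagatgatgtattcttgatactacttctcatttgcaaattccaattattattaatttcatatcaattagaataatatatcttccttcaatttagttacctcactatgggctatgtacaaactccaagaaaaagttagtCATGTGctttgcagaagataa
Of the 25 windows of pigment genes 52.0% held this E-box, against 15.2% of the windows of all tested genes and 19.2% of those of genes 1.5-fold higher in clone 3. The share was much the same for genes 1.5-fold lower in clone 3 (19.8%) and lower in clone 2 (18.9%). It was 35.0% of the 20 windows of genes higher in clone 1.

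Of the BMP and TGF-beta list, Id1, Id3, Smad6, Smad7 and Skil were lowest in clone 3 and highest in clone 2. These ligands signal through Smad proteins, and Id1 and Id3, which block differentiation factors by pairing with them, are direct BMP targets, while Smad6 and Smad7 are the pathway's own inhibitors. Of 14 genes that passed, 5 were 1.5-fold higher in clone 2 (0.88% of all genes) and 3 were 1.5-fold lower in clone 3 (0.658%). Of the latter, Id1 and Id3 were 2-fold lower (0.053% of all genes). Id1 read 802, 1242 and 479, and Id3 read 3011, 3663 and 1561. Smad6 read 281, 403 and 235, and Smad7 read 209.7, 342 and 176. Skil, which holds Smads in check, was high in clone 2 alone, at 834, 1342 and 811. These 5 were singled out after their values were seen, and other responsive genes of the list did not share their range: Id2 read 8771, 9312 and 8000.4, and Bambi, an induced decoy receptor, read 753, 833 and 853. The signalling receptors and ligands of the list differed less, none by more than 0.29, so the medians of the whole list were small, at -0.01, 0.11 and -0.17.

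**Figure D4:**
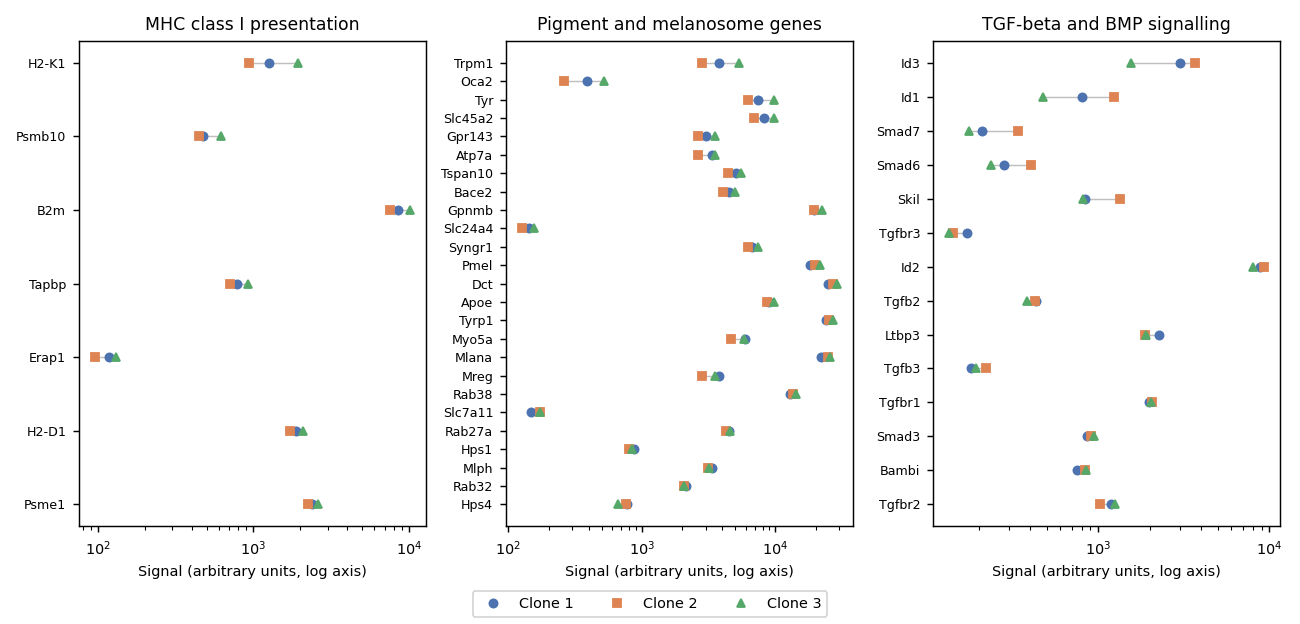
Signal (arbitrary units, log axis) of the MHC class I genes (7), pigment and melanosome genes (25) and TGF-beta and BMP genes (14) that passed the filter, 1 point for each clone with a grey line over the range, ordered by the difference of clone 3, from the highest in the first panels and from the lowest in the last. Triangles of clone 3 lie right of the others at H2-K1, Trpm1, Oca2 and Tyr and left of them at Id3 and Id1; on a spike scale the pigment medians of clones 2 and 3 turn sign.

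Growth factor receptors leaned to clone 2. Of 19 genes for growth factors and receptor tyrosine kinases that passed, 16 were above 0 in clone 2, with medians of -0.07, 0.22 and -0.13 in the 3 clones. Many of them were dim, and the median of clone 2 was 0.03 with no filter, 0.11 with a filter at 400 and 0.09 with the mean over a gene's probe sets. In clone 2, 2 genes were 1.5-fold higher (0.88% of all genes) and 1, Vegfa, was 1.5-fold lower (1.05%). The 2 higher ones were Ddr2, a collagen receptor (1199, 2124 and 1358), and the dim Fgfr3 (129.5, 186 and 99.7). Ddr1, the related receptor, was low in clone 3 instead, at 4560.0 in clone 1, 5029 in clone 2 and 3044 in clone 3. The genes of cholesterol synthesis had smaller and very even differences: 19 of 20 were below 0 in clone 2 and 19 of 20 above 0 in clone 3, with medians of -0.17 and 0.19 that turned to 0.09 and -0.08 on the spike scale.

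Some single stress and early response genes differed between the clones, while the medians of their lists were small. Hspa1b, the inducible Hsp70 chaperone, read 694 in clone 1, 813 in clone 2 and 2499 in clone 3, 3.31-fold above the mean of the others. Its other probe sets put clone 3 at 1.21 and 1.35, and near-identical Hspa1a may share these signals. Of 15 heat shock genes that passed it was the sole gene 1.5-fold higher in clone 3, where 0.986% of all genes were. The list's medians were -0.09, 0.07 and -0.05, and those of the immediate early genes -0.15, 0.10 and -0.06. Of 25 immediate early genes that passed, 4 were 1.5-fold higher in clone 3 (0.986% of all genes) and 1 was lower (0.658%). The 4 were Ier3 and the dim Fosb, Maff and Dusp2. In clone 1, 3 were 1.5-fold lower (0.477% of all genes) and 0 higher (0.212%), and in clone 2, 2 were higher (0.88%) and 1 lower (1.05%). Junb, an AP-1 subunit of dim signal, was low in clone 1, at 61.9 against 170 in clone 2 and 153 in clone 3. Among immediate early genes of brighter signal, Ier3 read 3634, 2356 and 5284. Ccn1, a matrix protein that responds to YAP, read 5002, 6864 and 4307 at its brightest probe set, while a dim probe set read 174, 133 and 500.0; they point in opposite directions.

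The genes that stood farthest from both other clones were named by rank, 10 higher and 10 lower in each clone. Here a gene stands for its probe set of widest difference, which was its brightest in 24 of the 60 entries. The highest of the 3 signals had to reach 300, so 20 entries with a mean under 300 qualified through the clones where they were high. In clone 2 the higher ones were Masp1, a complement protease (325, 746 and 278; a second probe set gave 0.93), Crabp2, which carries retinoic acid (1258, 2601 and 878), Gas5, a noncoding host of small nucleolar RNAs (629, 1456 and 677), Tpm1, a tropomyosin of actin filaments (240, 570.1 and 253), Atf5, Sde2, Tra2a, Ankrd11, Tia1 and Lims2. Gas5 was 1.15 above the others at this probe set, 0.97 at another (697, 1439 and 771) and 0.18 at its brightest other one. The lower ones in clone 2 were Adm, Ankrd37 and Pdk1, described above, with Shmt2 (by its dim probe set; its brightest was higher in clone 2), Cnpy2, Jpt1, Anxa4, Bcas2, AI837181 and Narf. Jpt1 read 7416, 2887 and 6524 at a probe set that can match several transcripts, and -0.10 at its brightest other.

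In clone 3 the higher genes were Hspa1b, Ccn1 (by its dim probe set; its brightest was lowest in clone 3), Txnip, Nr2f2, Prkab2, Guca1a, Msn, Rpl37a, Cd99 and Csrp1. Txnip, which binds thioredoxin and is induced by glucose, read 347, 334 and 677. Nr2f2, the nuclear receptor COUP-TFII, read 175, 176 and 344 at 1 probe set and differed by 0.05 at its brightest other. Csrp1, a LIM domain protein, read 1875, 1436 and 3139.66. The lower genes were Psma6, Snrnp48, Id3, Rbm39, Taf15, Lims2, Smarcb1, Id1, Rbm25 and Nktr. Snrnp48, Rbm39, Rbm25 and Nktr take part in, or are bound up with, RNA splicing. Snrnp48 read 523, 517 and 240.1 and Rbm39 1188, 1418 and 639, but the brightest other probe sets of these genes gave 0.06 and -0.14.

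In clone 1 the 10 higher genes stood 0.58 to 0.83 from the nearer of the other clones, where those of clone 2 stood 0.90 to 1.18 and those of clone 3 0.74 to 1.61. They were Riok1, Smarcb1, Tex2, Plscr4, Ces5a, Klf7, Ppp2r5e, Trps1, Dagla and Mef2c. Trps1, a GATA-type repressor, read 1235, 525 and 821. Of the 7 with another probe set, 0 had their brightest other above 0 in clone 1. The lower genes were Ywhab, Ly75, Hspa8, Smim27, Elovl7, Wdr70, Ttyh3, Tmem14a, Mthfsd and Gsta4. Ywhab, a 14-3-3 protein, read 35.6 in clone 1 against 349 and 313, but its brightest other probe set differed by -0.09. Ly75, an endocytic receptor with 1 probe set, read 124, 348 and 345.

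A second reading of the same gene was the closest thing to a repeat in these arrays, although both come from 1 RNA. For the 4166 genes with 2 or more probe sets past the filter, the brightest and the next agreed in sign for 54.8% of genes in clone 1, 61.2% in clone 2 and 60.1% in clone 3. Across genes, which are not independent, they correlated at 0.11, 0.35 and 0.26. Of the 41 named genes with another probe set, 24 had the same sign at the brightest other, and 4 were 1.5-fold the same way. Probe sets that can match several transcripts made up 17 of the 60 named entries, and 17.2% of the probe sets of 2-fold range against 7.35% of all tested.

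**Figure D5:**
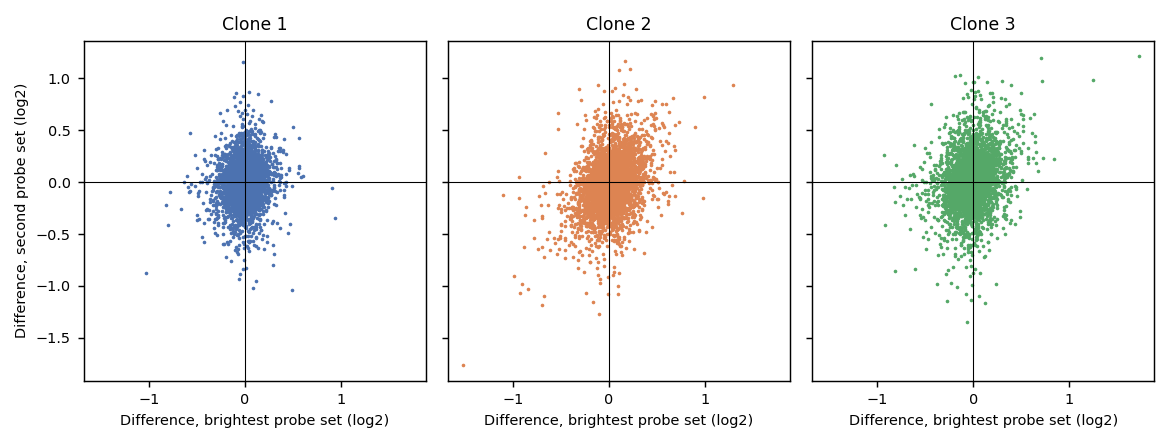
Difference at the second brightest probe set (vertical) against that at the brightest (horizontal) for the 4166 genes with 2 or more probe sets past the filter, in log2 units, 1 point a gene and 1 panel a clone. Clone 1 forms a round cloud (r = 0.11), and clones 2 and 3 tilt (0.35 and 0.26), with Adm at the lower left of clone 2 and Hspa1b at the upper right of clone 3.

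Requiring both readings to be 1.5-fold the same way left 0 genes higher (0%) and 1 lower (0.024%) in clone 1, 5 higher (0.12%) and 12 lower (0.288%) in clone 2, and 6 higher (0.144%) and 2 lower (0.048%) in clone 3. Of the 12 lower in clone 2, 6 belong to the hypoxia list: Adm, Aldoc, Egln1, Pdk1, Pfkl and Slc2a1. The others were Ak4, Ankra2, Ccng2, Nabp1, Trpm1 and Rora, the last a nuclear receptor at 436, 248 and 462. The 5 higher in clone 2 were Masp1, Pck2, Gm11944, Igf2bp1 and Limch1. Igf2bp1, an RNA-binding protein of the embryo, read 148, 273 and 121, and Limch1, which binds actin and myosin, read 2703, 4002 and 2490.03. In clone 3 the 6 were Adm, Ak4, Ccng2, Hspa1b, Pfkl and Trpm1, and the 2 lower were Masp1 and Nfix.

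Among the 5615 genes in the brighter part of the array, with a mean signal of 705 or more, 28 (0.499%) were 1.5-fold lower in clone 2, and 17 (0.303%) were higher. Clone 3 had 19 higher (0.338%) and 13 lower (0.232%), and clone 1 had 2 higher (0.0356%) and 6 lower (0.107%). Gsta2, a glutathione transferase, was among the widest, at 1540.1, 809 and 2089.99, followed in clone 2 by Ak4, Bnip3 and Trps1. Lgals3, the galactose-binding lectin galectin-3, read 3750.2, 2373 and 4629.

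No chromosome stood apart. Over the 20 chromosomes with 235 to 781 genes each, median differences lay between -0.04 and 0.04 in every clone. Among 9124 runs of 15 neighbouring genes, the medians farthest from 0 were 0.28 on chromosome 11 in clone 2, from Sgsm2 to Inpp5k, and -0.18 on chromosome 7 in clone 2, from Sirt2 to Zfp27. Copy number itself was not measured.

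Many groups differed little. The medians of the genes of G2/M and mitosis were 0.01, 0.02 and 0.00 in clones 1, 2 and 3, those of G1/S and DNA replication 0.00, 0.04 and -0.09, and those of oxidative phosphorylation subunits -0.05, 0.02 and 0.02. The DNA methylation machinery, to which PGC7 relates, had -0.02, 0.09 and -0.10. In that list Tet1, which oxidises methylcytosine, was the widest gene, at 458, 278 and 506 (-0.78 in clone 2). The p53 targets had -0.13, 0.14 and -0.04, with Trp53inp1 at 2409, 3347 and 2252. Ribosomal protein genes had -0.14, 0.04 and 0.09, which became 0.00, 0.02 and -0.02 after quantile normalization.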

How the data were processed

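Affymetrix 3' arrays of total RNA gave the deposited values, linear signal intensities made by the authors with MAS5, per the submitters' processing notes. The MAS5 release and options were not given in the sources used here. Deposited scaling was kept. Values were put on a log2 scale here as log2(signal + 6), 6 being the rounded 25th percentile of all values of the 3 arrays. Control probe sets (64) and those with a mean signal under 100 were left out. Controls aside, 34945 of the 45101 probe sets had 1 gene symbol in the platform annotation, 932 several and 9160 none; symbols were updated through RefSeq (GRCm38.p6). A gene was read by its brightest probe set in counts and lists. Named genes, each read by its probe set of widest difference, were the 10 highest and 10 lowest in each clone by the smaller of the differences from the other clones, with the highest signal at 300 or more, besides Dppa3, members of gene lists and genes said to be chosen later. The members, lists and rules were chosen with earlier results of these data known. With 1 array for each clone no test was made, and the number of arrays limits the precision. Scripts ran in Python 3.11.15 with numpy 2.4.6 and pandas 2.3.3 and were tested on simulated data. Alternatives were other pseudocounts, filters, scalings, folds and readings of genes, leaving out a clone, and leaving out probe sets that match several transcripts, the last chosen after seeing the data.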

Additional observations from a re-analysis of the deposited data

How the results depend on the processing

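Counts of probe sets 2-fold from the mean of the other clones are given in the order clone 1 higher and lower, clone 2 higher and lower, clone 3 higher and lower. They were 5, 10, 29, 34, 26 and 41, and stayed within 1.5 times under pseudocount 1, quantile normalization and equal median log ratios. Pseudocount 64 gave 1, 2, 11, 11, 9 and 8. No filter gave 2111, 2525, 2455, 2515, 3448 and 2075, a filter at 400 gave 1, 1, 4, 6, 3 and 6, and one on the mean log2 value gave 50, 86, 110, 130, 107 and 162. Asking for 2-fold from each other clone gave 0, 7, 10, 15, 10 and 19, of which only the 7 is within 1.5 times. At 1.5-fold the counts were 93, 123, 310, 272, 265 and 289, and as genes 0, 4, 4, 7, 4 and 5. Without the probe sets that match several transcripts, an alternative chosen after seeing the data, clone 1 higher became 2, clone 2 lower 22 and clone 3 higher 17. Spike scaling gave 129 and 12 for clone 2 and 9 and 134 for clone 3. Leaving out 1 of the other clones gave 22 to 27 and 34 to 37 for clone 1, 34 to 80 and 22 to 89 for clone 2, and 37 to 89 and 27 to 80 for clone 3; the highest values of clones 2 and 3 are those without clone 1. In each, fewer arrays enter the reference, and otherwise the cause was not tested.

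Of 8 list medians of 0.2 or more, 7 kept their direction throughout the filters and 7 throughout the scalings. The median of the list named for insulin-like growth factor binding proteins in clone 3 (-0.21) became 0.10 with a filter at 400. Of its 6 genes that passed, Igfbp4 alone is such a binding protein, and it was 0.28 higher in clone 3. The others, Igf2bp1, Igf2bp3, Igf2r, Irs1 and Irs2, were the 5 below 0 there. That of the interferon-stimulated genes in clone 3 (0.21) became -0.058 with spike scaling. Size was kept less well. The growth factor median in clone 2 fell from 0.22 to 0.03 with no filter. With spike scaling the MHC class I medians became -0.02 in clone 2 and 0.05 in clone 3, and the hypoxia median in clone 3 became 0.05. The counts moved most with the filter on dim signal. No paired analysis was possible because the clones were compared with each other and share no other array.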
